A study of Mus musculus with 6 samples.

Results

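The genes of the mitochondrial respiratory chain and of the ATP synthase were followed in MLO-Y4 cells, an osteocyte-like mouse cell line, after low-intensity pulsed ultrasound (LIPUS). A gene was a member when its symbol named a subunit of complex I (Ndufa, Ndufb, Ndufc, Ndufs or Ndufv with a number), complex III (Uqcr), complex IV (Cox4 to Cox8) or complex V (Atp5), or a protein encoded by mitochondrial DNA, and pseudogene names were left out. This gave 92 genes of the 53797 listed, of which 79 lie in the nuclear and 13 in the mitochondrial genome. RNA came from 3 LIPUS cultures, stimulated for 20 min at 30 mW/cm2 and 1.5 MHz, and from 3 Control cultures without stimulation, and was extracted 30 min after the stimulation. Control wells lay in the same plates as LIPUS wells, over transducers that were switched off. Both groups are cultures of 1 cell line, derived from a mouse that carried a viral large T antigen transgene, so that a difference between them speaks for these cells and not for osteocytes in bone. The comparison asks which transcripts of the chain differ between stimulated and unstimulated cells shortly after LIPUS.

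The chain passes electrons from NADH through complex I, and from succinate through complex II, to complex III and on to complex IV, which hands them to oxygen. Complexes I, III and IV pump protons across the inner mitochondrial membrane, and complex V, the ATP synthase, uses their return to make ATP. Most subunits are encoded in the nucleus and imported, while a small core is encoded and translated inside the mitochondrion. Osteocytes lie embedded in mineralised bone, where oxygen is scarcer than at its surface.

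The values are FPKM, counts of sequenced fragments divided by transcript length and by the size of the library, and the table holds 1 value per gene for each group, pooled over its 3 libraries. Values of single cultures were not analysed here, so that no SD is given and no test of replicates was run here, and the number of fragments behind each value cannot be read from the table. The test results that the authors deposited with the table were not used. Each difference below is one between 2 pooled values, and whether it is larger than the spread between cultures was not tested here. In the study's principal component analysis 1 control library stood apart, and its part in the pooled values cannot be examined. The paper proposes that ultrasound may have leaked into control wells of the shared plate. Whether Control cells were partly stimulated was not tested here. Differences are given as a log2 ratio of LIPUS over Control, with 0.1 added to both values, for genes whose FPKM reached 1 in 1 group or both. This filter kept 84 members and 11999 of all genes. FPKM is a level per length, and fewer cells of a kind and less RNA per cell cannot be told apart in such bulk RNA.

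The osteocyte label was checked with 8 marker genes, of which 4 passed the filter. Pdpn, a membrane glycoprotein of early osteocytes, stood at 295 in Control and 402 in LIPUS, Gja1, the gap junction protein connexin 43, at 176 and 170, and Cd44 at 200.2 and 212. Dmp1, a matrix protein of osteocytes, was low at 3.04 and 7.65. Sost, Fgf23 and Mepe, markers of mature osteocytes, were listed at 0 in both groups, and Phex at 0 and 0.19. All 6 osteoblast lineage markers passed the filter, and 4 of them were at least 1.2-fold lower in LIPUS, as were 22.4% of all genes past the filter. These were Col1a1 at 891 in Control and 731 in LIPUS, Alpl at 293 and 190, Runx2 at 24.4 and 14.8 and Sp7 at 5.86 and 3.75. Spp1 stood at 4514 and 4158, and Bglap was listed at 0 in Control and 1.58 in LIPUS. Among 5 leukocyte markers Ptprc and Adgre1 were listed at 0 in both groups, Csf1r was under 1 in both, Cd14 stood at 8.19 and 10.6 and Cd68 at 5.32 and 1.72. The 5 leukocyte markers summed to 13.7 in Control and 12.6 in LIPUS, and the erythroid and epithelial markers were listed at 0. Pdpn, Dmp1, Alpl, Runx2 and Cd68 differed between the groups by more than most members of the chain did, and the part of this in the results below was not tested.

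Most of the chain stood at nearly the same level in both groups. Of the 84 members past the filter, 10 were at least 1.2-fold higher in LIPUS (11.9%) and 7 at least 1.2-fold lower (8.33%). Among all 11999 genes past the filter 21.8% were higher and 22.4% lower by this measure, so that both shares of the chain lay under those of the whole table. Low values scatter more than high ones, and the members are abundant. Among genes that reached 10 FPKM in either group, 8 of 79 members were higher (10.1%) and 4 lower (5.06%), against a background of 16.9% higher and 15.5% lower among 7032 genes. The median size of the log2 ratio was 0.13 over the members and 0.22 over all genes past the filter, 0.13 against 0.17 at an FPKM of at least 10, and 0.11 against 0.13 at an FPKM of at least 50. The gap to other genes thus narrowed as level was taken into account.

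**Figure D1:**
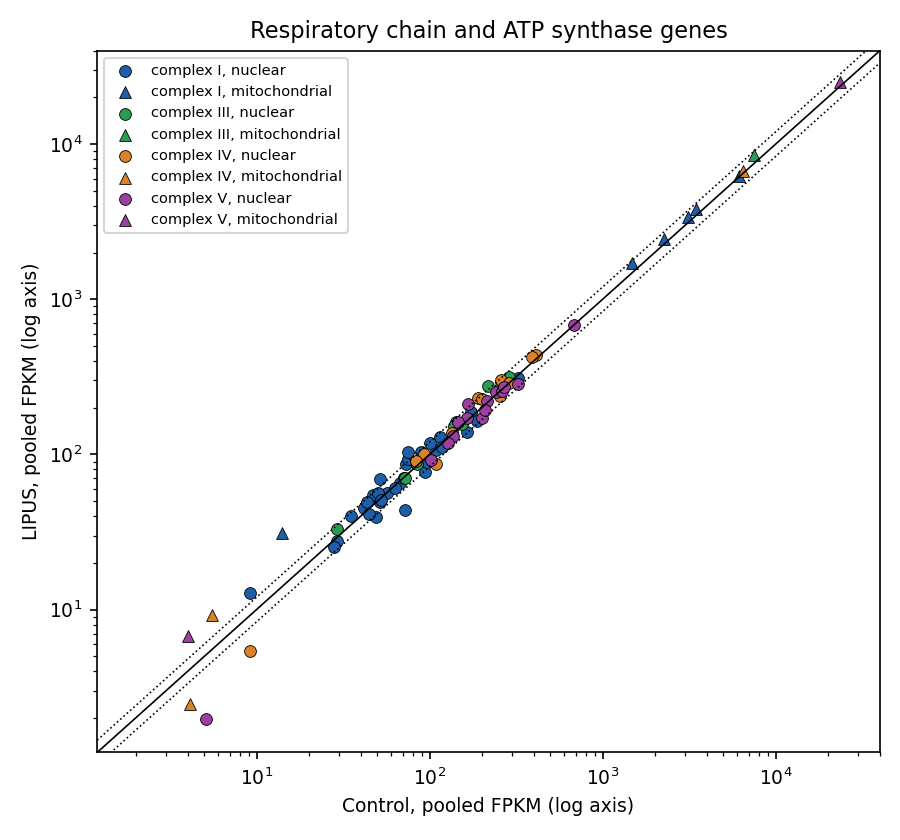
Pooled FPKM of the 84 members past the filter in Control (horizontal) and LIPUS (vertical), both on log axes, with 1 point per gene, coloured by complex and shaped by genome. The solid line marks equal values and the dotted lines 1.2-fold; most points lie between the dotted lines, and the points away from them are mainly genes under about 100 FPKM, with mitochondrial genes at both ends of the range.

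By genome, the median log2 ratio was 0.02 over 72 nuclear members, 0.14 over 12 mitochondrial members and -0.00047 over all 11999 genes. The nuclear members were split between 40 above and 32 below 0, and 62 of the 72 (86.1%) lay within 20% of their Control value, against 59.5% of all genes past the filter with a Control value above 0. Among genes that reached 50 FPKM the shares were 88.5% of 61 nuclear members and 79.7% of 2101 genes. The mitochondrial genes made up 83.9% of the summed FPKM of the members in Control and 84.4% in LIPUS. Of the summed FPKM of all genes they took 9.07% and 9.42%. The sum over all genes was itself higher in LIPUS, by 0.05 on the log2 scale, and scaling both groups to the same sum moves a log2 ratio by about -0.05, slightly more or less for genes of low level, where the pseudocount counts. A median as small as that of the nuclear members changes sign under this scaling, to -0.02, with 34 genes above and 38 below 0. The median of all genes moved with it, to -0.05. Counts against 0 after scaling, here and below, thus carry a shift common to all genes.

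The 13 mitochondrial genes fell into a high and a low set. In genome order, mt-Nd1, a core subunit of complex I, stood at 6168.5 FPKM in Control and 6195 in LIPUS. Its neighbour mt-Nd2, another membrane core subunit, stood at 3469 and 3842. For mt-Co1, the catalytic subunit of complex IV that binds its haem groups, the values were 6497 and 6667. The small membrane subunit of the ATP synthase, mt-Atp8, had the highest Control level of all genes listed, at 23622, and 25248 in LIPUS. It is 204 bases long and was sequenced with reads of 100 bases, so that its FPKM leans on the length correction. For mt-Nd4, mt-Nd5 and mt-Nd6, core subunits of complex I, the Control values were 1479, 2277 and 3122 and the LIPUS values 1713, 2442 and 3406. Finally mt-Cytb, the cytochrome b of complex III, stood at 7546 and 8527. All 8 genes of the high set were above Control, by 0.01 to 0.21 on the log2 scale with a median of 0.11, and none was past 1.2-fold. All but mt-Nd6 lie on the same strand, whose genes are transcribed together, so that the 8 are not independent observations. When both groups were scaled to the same sum, the median was 0.07 and 6 of the 8 were above 0, and mt-Nd1 and mt-Co1 fell below it. Of the 25 genes of the table with the highest Control values, 7 were mitochondrial genes of this set.

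The low set held mt-Co2 and mt-Co3, the other mitochondrial subunits of complex IV, mt-Atp6, the proton channel subunit of the ATP synthase, and mt-Nd3 and mt-Nd4l of complex I. Their Control values were 5.52 for mt-Co2, 4.02 for mt-Atp6, 4.10 for mt-Co3 and 14.0 for mt-Nd4l, and mt-Nd3 was listed at 0. In LIPUS they stood at 9.22, 6.74, 2.46 and 31.2, with mt-Nd3 again at 0. The highest of them was thus far below the lowest gene of the high set, mt-Nd4, although the mitochondrial genes of a strand are transcribed together. As log2 ratios the differences were 0.73 for mt-Co2, 0.73 for mt-Atp6, -0.71 for mt-Co3 and 1.15 for mt-Nd4l. These 4 past the filter account for every mitochondrial member past 1.2-fold, and they did not share a direction.

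The sets differ in their annotated copies. Each gene of the low set has an annotated nuclear copy that matches at least 90% of its length at 99% identity or more, and no annotated copy of this kind was found for a gene of the high set. The copies were found among the transcripts of GENCODE M21 (GRCm38), which has the same build as the table. They are Gm28661 for mt-Co2 (681 aligned bases, 100% identical), Gm10925 for mt-Atp6 (678 bases, 100%), Gm28437 for mt-Co3 (783 bases, 100%), Gm28438 for mt-Nd3 (345 bases with 1 mismatch) and Gm10222 for mt-Nd4l (294 bases, 100%). With partial copies of mt-Co1 (Gm29216, 483 bases with 1 mismatch of the 1545 of the gene) and mt-Nd4 (Gm28439, 876 identical bases of 1378) they form a run of 7 annotated genes at chr1:24611535-24616197, a stretch of 4.66 kb. The 7 copies were themselves low, with a summed FPKM of 21.7 in Control and 21.2 in LIPUS, so that neither the genes of the low set nor their copies had a high level. The copies follow the order of the mitochondrial genome on the opposite strand, and its spacing to within 1 base, from base 6390 to base 11042. Between the copies of mt-Co2 and mt-Atp6 lie 233 bases without an annotated transcript, as many as in the mitochondrial genome, where 161 of the 204 bases of mt-Atp8 lie in this interval and its last 43 match Gm10925. Whether these bases hold an unannotated copy of mt-Atp8 was not tested, since the genome sequence of this stretch was not used here. The split of the 2 sets is one by annotated copies only. Reads that fit a gene and its copy equally well cannot be assigned by their sequence, and how such reads were treated is not given in the sources used here. The part of the copies in the low values was not tested. The split was noticed after the values were seen, and the values of mt-Co2, mt-Co3, mt-Atp6, mt-Nd3 and mt-Nd4l are best read as uncertain in both groups.

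**Figure D2:**
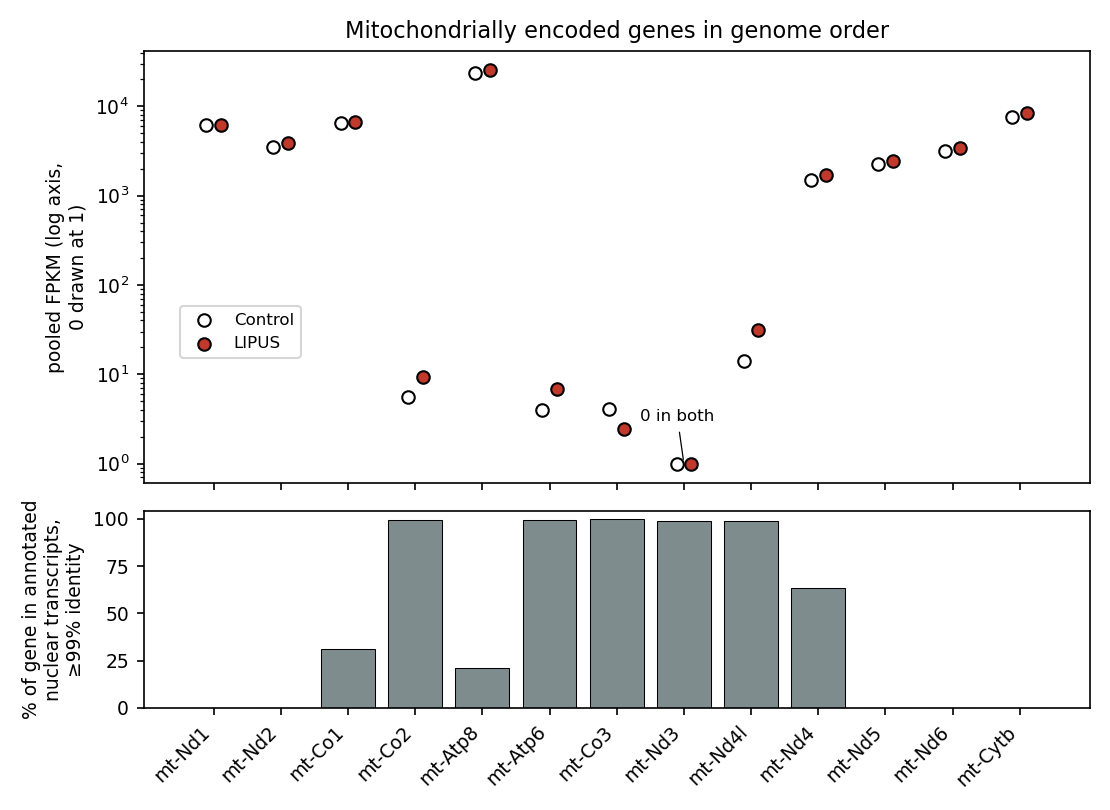
Above, pooled FPKM of the 13 mitochondrially encoded genes in genome order on a log axis, with open points for Control and filled points for LIPUS. Below, the percentage of each gene's length that matches an annotated nuclear transcript at 99% identity or more; the 5 genes covered over at least 90% are the 5 genes at or under 31.2 FPKM, while mt-Co1, mt-Atp8 and mt-Nd4, covered in part, are in the high set.

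The following windows of 100 bases show how near these copies are, read 5′ to 3′ along each gene from the GENCODE M21 transcripts, with capitals at the bases that differ within a pair. The first pair is mt-Co2 (chrMT:7303-7402, plus strand) with Gm28661 (chr1:24615176-24615275, minus strand), which have 0 differences in the window. The second is mt-Nd3 (chrMT:9459-9558, plus strand) with Gm28438 (chr1:24613020-24613119, minus strand), with 1 difference. The third, from the high set, is mt-Cytb (chrMT:14667-14766, plus strand) with its nearest annotated copy Gm11410 (chr4:80004511-80004610, plus strand), with 9 differences.
mt-Co2: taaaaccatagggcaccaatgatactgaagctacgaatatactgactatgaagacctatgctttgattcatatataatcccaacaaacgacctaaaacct
Gm28661: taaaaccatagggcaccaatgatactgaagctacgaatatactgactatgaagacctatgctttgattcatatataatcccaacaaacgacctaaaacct
mt-Nd3: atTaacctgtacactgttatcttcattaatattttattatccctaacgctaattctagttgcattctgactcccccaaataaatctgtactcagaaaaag
Gm28438: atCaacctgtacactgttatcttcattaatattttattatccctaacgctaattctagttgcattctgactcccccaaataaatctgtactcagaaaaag
mt-Cytb: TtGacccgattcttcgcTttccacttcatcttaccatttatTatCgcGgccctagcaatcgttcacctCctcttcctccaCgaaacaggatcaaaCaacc
Gm11410: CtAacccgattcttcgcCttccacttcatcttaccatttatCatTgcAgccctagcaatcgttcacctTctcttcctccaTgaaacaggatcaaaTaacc

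A fragment of mt-Co2 from this window carries no base that tells it from Gm28661, whereas one of mt-Cytb carries several that tell it from Gm11410. Over their whole alignments, mt-Cytb and Gm11410 were 92.9% identical, mt-Nd6 and Gm11408 93.6%, mt-Nd5 and Gm4076 95.2% and mt-Nd2 and Gm13339 96.7%, and all of these copies were listed at 0. For mt-Co1 a second copy, Gm13340, covered the whole gene at 97.6% identity and stood at 0.18 in Control and 0.32 in LIPUS. Other features of the table also touch these values. The genes mt-Atp8, mt-Atp6 and mt-Co3 share 1 listed locus, mt-Nd4l overlaps mt-Nd4, and mt-Nd6 overlaps mt-Nd5 on the opposite strand. The mitochondrial ribosomal RNAs, which lack a long poly(A) tail and are largely lost from mRNA libraries, went the other way from the high set, with mt-Rnr1 at 106 in Control and 76.3 in LIPUS and mt-Rnr2 at 161 and 102. All 22 mitochondrial tRNAs were listed at 0.

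Complex I, the NADH dehydrogenase, gave a median log2 ratio of -0.0045 over its 36 nuclear members past the filter, with 17 above and 19 below 0. Its most abundant nuclear members in Control were Ndufa4, at 326 in Control and 312 in LIPUS, Ndufa12, an accessory subunit, at 267 and 281, and Ndufs5, an accessory subunit of the intermembrane side, at 188 and 164. Ndufa4 keeps a complex I name, though its protein is now counted with complex IV. The 7 nuclear core subunits, the part of the enzyme that takes electrons from NADH to ubiquinone, had a median of -0.06, with 2 above and 5 below 0 and none past 1.2-fold. Of the 8 genes named Ndufs, 7 were below 0, and the exception was Ndufs3, at 35.3 and 40.0 FPKM. These 8 spanned -0.19 to 0.18. Ndufs1, which holds iron-sulfur clusters, stood at 29.2 in Control and 27.9 in LIPUS, and Ndufv1, which binds NADH and flavin, at 63.3 and 60.6. Ndufv2 was the core member farthest above Control, at 43.5 and 49.4, and Ndufs8 the farthest below, at 28.2 and 25.3. The 29 accessory members past the filter had a median of 0.07 and held all 7 nuclear members of the complex past 1.2-fold, which is 24.1% of them against 44.2% of all genes in either direction. The split into core and accessory subunits was made after the values were seen.

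Among the accessory subunits, 4 were past 1.2-fold above Control. The level of Ndufa10, a subunit of the membrane arm, was 51.6 in Control and 69.5 in LIPUS (log2 ratio 0.43). Ndufb7, on the intermembrane side, stood at 75.1 and 103.6 (0.46), Ndufb2 at 75.2 and 93.2 (0.31) and Ndufa11, a membrane subunit, at 9.22 and 12.9 (0.48). Below Control were Ndufc1, a small membrane subunit, at 71.8 and 44.0 (-0.70), Ndufb4 at 49.0 and 39.5 (-0.31) and Ndufb5 at 94.0 and 77.1 (-0.29).

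Complex III, the cytochrome bc1 complex, had the highest nuclear median, 0.11 over 8 members, with 7 above 0. Scaling to the same sum left 6 above 0 and a median of 0.07. Its most abundant nuclear members in Control were Uqcrh, the hinge protein, at 288 in Control and 316 in LIPUS, Uqcrb, which binds ubiquinone, at 258 and 274, and Uqcr11, a small membrane subunit, at 218 and 277. At a log2 ratio of 0.34, Uqcr11 was the highest and the only nuclear member of this complex past 1.2-fold. The lowest was Uqcrc2, a core protein, at 72.4 and 70.1 (-0.05). Uqcrfs1, the Rieske iron-sulfur protein, stood at 29.4 and 32.9, and was the least abundant.

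Complex IV, the cytochrome c oxidase, had a median of 0.10 over 12 nuclear members past the filter, with 9 above and 3 below 0, and with 7 above and a median of 0.06 after scaling to the same sum. The most abundant in Control were Cox6a1, Cox8a and Cox6c. Cox6a1 stood at 411 in Control and 439 in LIPUS, Cox8a at 389 and 426 and Cox6c at 287 and 290. Cox5b, the zinc-binding subunit, was the highest nuclear member of the complex at 191 and 232 (log2 ratio 0.28), and the only nuclear one past 1.2-fold above Control. It was no longer past 1.2-fold when both groups were scaled to the same sum, at 0.24. Cox5a, a subunit of the matrix side, stood at 92.6 and 99.99 and Cox7c at 200.3 and 228. Cox7b was below Control at 109 and 87.3 (-0.32), and Cox6b2, a form typical of testis, was the lowest nuclear member at 9.20 and 5.41 (-0.76).

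Complex V, the ATP synthase, was level as a whole, with a median of -0.02 over 16 nuclear members, 7 above and 9 below 0. The F1 head, where ATP is made, is built from Atp5a1, Atp5b, Atp5c1, Atp5d and Atp5e, and these 5 spanned -0.13 to 0.06. The catalytic subunit Atp5b, the most abundant nuclear member, stood at 682 FPKM in Control and 681 in LIPUS, and its partner Atp5a1 at 254 and 255. After scaling to the same sum, 4 of the 16 were above 0 and 12 below, with a median of -0.06 where that of all genes was -0.05. Of the peripheral stalk, Atp5f1 (subunit b) stood at 201 and 173, Atp5o, which binds the head, at 209 and 193, and Atp5j (coupling factor 6) at 146 and 162. Atp5g2, a ring subunit, stood at 324 and 286, Atp5h of the stalk at 268 and 273, and Atp5l, subunit g of the membrane part, at 166 and 213. Atp5l was the highest at a log2 ratio of 0.36. The lowest of all members was Atp5s, named coupling factor B, at 5.08 and 1.98 (-1.32), a low value that moves to -1.03 with a pseudocount of 1. RefSeq lists this gene as Dmac2l, and whether its protein is a part of the ATP synthase was not examined here.

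**Figure D3:**
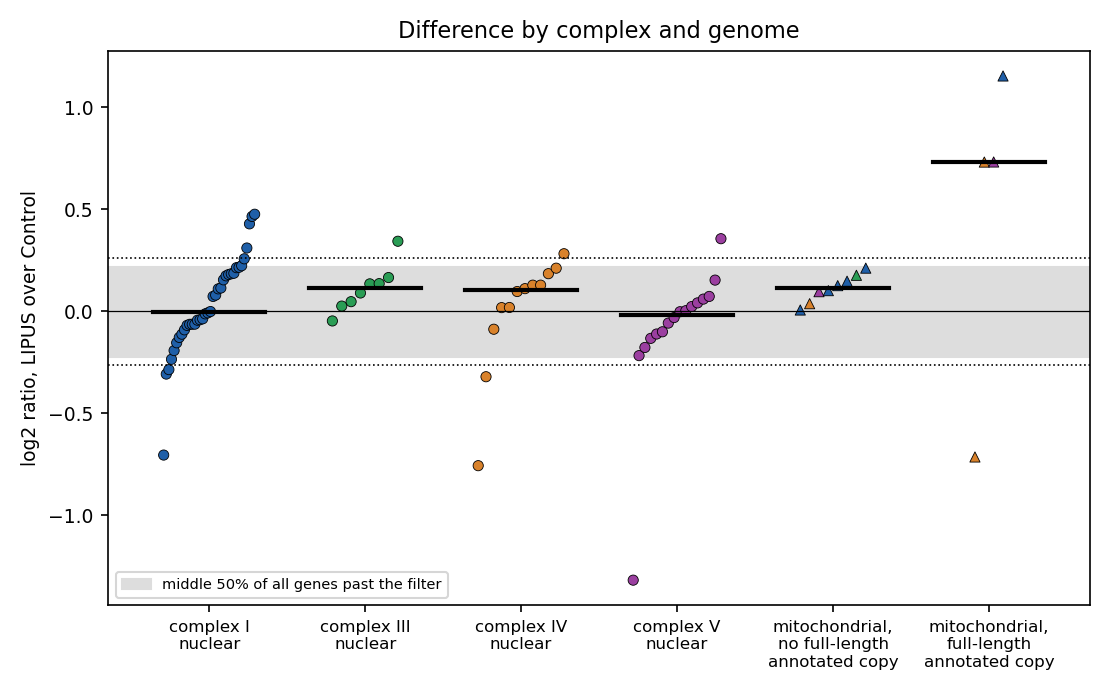
Log2 ratio of LIPUS over Control for each member past the filter, by complex for nuclear genes (circles) and by the presence of an annotated full-length nuclear copy for mitochondrial genes (triangles), coloured by complex as in the plot of levels. Thick bars are medians, dotted lines mark 1.2-fold and the grey band holds the middle 50% of all genes past the filter; complexes III and IV have medians of 0.11 and 0.10, complexes I and V medians near 0, and the 4 mitochondrial genes with a copy lie outside the dotted lines.

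Some of these values rest on sequence that other genes share. An annotated copy at 95% identity or more over at least 50% of the transcript was found for 7 nuclear members, among them Atp5l, whose copy Gm10221 was identical over 56.8% of its transcript. Those copies were listed at 1.49 FPKM at most. A gene on the opposite strand overlaps 26 of the 79 nuclear members, among them Ndufa11, Ndufb2, Ndufb5 and Atp5l. The libraries kept strand, but whether counting used it is not given in the sources used here.

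Several subunits exist in alternative forms, and in each Cox pair the main form was that of most tissues. Cox4i1 made up 99.8% of the summed FPKM of Cox4i1 and Cox4i2, the latter a form known from lung and low oxygen, in both groups. Cox6a1 made up 100% of its pair in Control and 99.9% in LIPUS, against Cox6a2 of heart and muscle. The muscle forms Cox7a1 and Cox8b and the testis forms Cox7b2 and Cox8c were listed at 0 in both groups. Ndufa4l2, a hypoxia-induced relative of Ndufa4, was listed at 0.31 in Control and 0 in LIPUS. With Cox4i2, Cox6a2 and mt-Nd3 these 5 genes are the 8 members that did not pass the filter.

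Where 2 or more forms were expressed, the mixture differed by a few percentage points. The share of Cox6b1 in its pair with Cox6b2 was 96.6% in Control and 98.2% in LIPUS, with Cox6b1 itself at 261 and 302. Cox7a2 made up 61.8% and 60.0% of the Cox7a group, the rest being Cox7a2l, which helps to join complexes III and IV into larger assemblies, at 83.5 and 91.2 FPKM. The ring subunit c of the ATP synthase is made from 3 genes whose mature proteins are the same. Atp5g1 gave 21.9% of their sum in Control and 24.1% in LIPUS, Atp5g2 43.3% and 40.1% and Atp5g3 34.8% and 35.8%. The order of the 3 genes was kept, and their sum was 748 in Control and 714 in LIPUS.

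**Figure D4:**
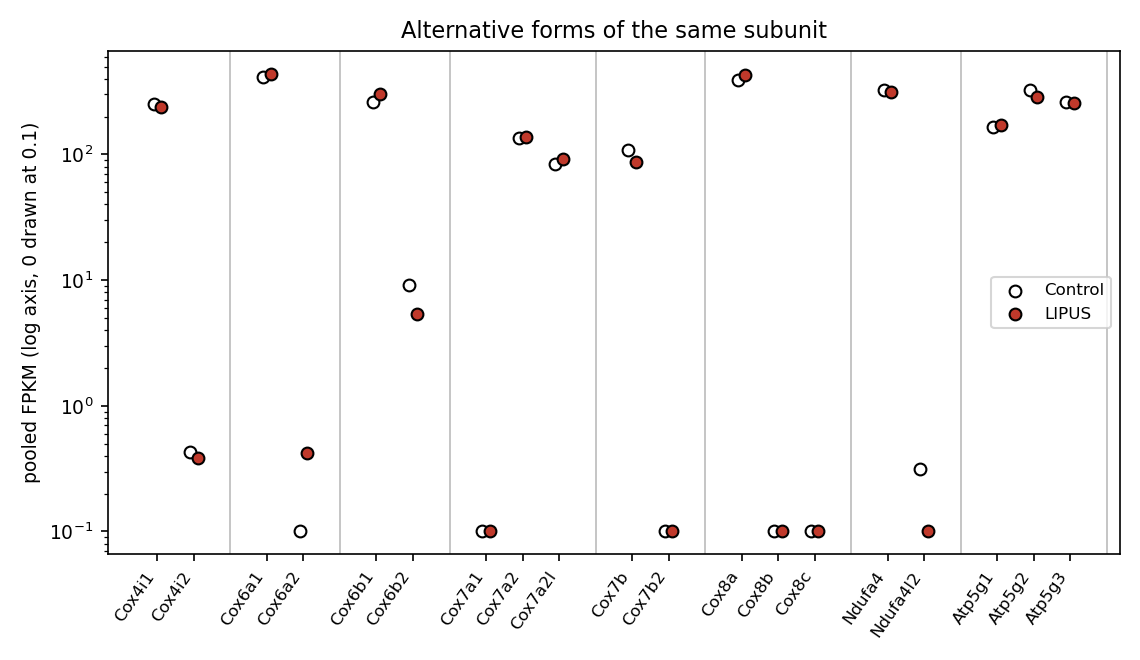
Pooled FPKM of alternative forms of the same subunit on a log axis, grouped by subunit between the grey lines, with open points for Control and filled points for LIPUS and values of 0 drawn at 0.1. In each Cox pair with a form of restricted tissue range the common form has by far the higher level and the other is under 10 FPKM, while the 3 Atp5g genes lie close together, from 164 to 324 FPKM in Control.

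Nuclear genes of the chain are known to share binding sites for the factors NRF1, GABPA, YY1 and ERR in their promoters. Promoter windows of 250 bases before and 50 bases after the start were taken from RefSeq (GRCm38.p6) and found for 65 of the 79 nuclear members, in 70 windows. The letters GCGCATGC, the core of the NRF1 site, were present on either strand in 12.9% of the members' windows and 2.71% of all 32851 windows. For GABPA, an Ets factor, CCGGAAG was present in 20% and 8.86%, for YY1 AAGATGG in 15.7% and 6.34%, and for ERR AAGGTCA in 10% and 4.72%. SP1 letters, GGGCGG, were in 38.6% and 35.7%. The members' windows were also richer in GC, with a median of 57.2% against 52.7%. A match of letters is a description of the sequence and not a site.

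Counts past 1.2-fold by promoter letters are few, and stand beside the 21.8% higher and 22.4% lower of all genes. The 9 members with the NRF1 letters had a median log2 ratio of 0.08, with 3 past 1.2-fold above Control and 0 below, and the 53 others past the filter that have a window had a median of 0.02. For the 14 with the GABPA letters the median was 0.13, against -0.0050 for 48 others, with 3 of the 14 past 1.2-fold above Control and 0 below. Atp5l and Uqcr11 are in both of these counts of 3, so that the counts are not separate. For the 11 with the YY1 letters the median was -0.09, against 0.05 for 51 others, with 0 above and 1 below. The 7 with the ERR letters had a median of -0.03, against 0.05 for 55 others, with 2 above and 1 below. The 25 past the filter with the SP1 letters had a median of 0.02, against 0.04 for 37 others, with 1 above and 3 below. A window with both the NRF1 and the GABPA letters was found for Atp5k, at a log2 ratio of 0.04, Atp5l at 0.36, Cox6a1 at 0.10 and Uqcr11 at 0.34. The windows of Atp5l and Uqcr11 are shown as those of the members past 1.2-fold, a choice made from their values, 5′ to 3′ along the gene, with the NRF1 and GABPA letters of either strand in capitals. The window of Atp5l is chr9:44920693-44920992 and that of Uqcr11 is chr10:80406772-80407071, both on the minus strand.
Atp5l: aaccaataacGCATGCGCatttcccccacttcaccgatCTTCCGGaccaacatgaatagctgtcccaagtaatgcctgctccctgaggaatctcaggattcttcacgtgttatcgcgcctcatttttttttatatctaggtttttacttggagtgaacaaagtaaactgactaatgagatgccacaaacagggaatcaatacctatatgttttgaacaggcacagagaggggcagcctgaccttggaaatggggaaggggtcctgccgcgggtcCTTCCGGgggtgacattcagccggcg
Uqcr11: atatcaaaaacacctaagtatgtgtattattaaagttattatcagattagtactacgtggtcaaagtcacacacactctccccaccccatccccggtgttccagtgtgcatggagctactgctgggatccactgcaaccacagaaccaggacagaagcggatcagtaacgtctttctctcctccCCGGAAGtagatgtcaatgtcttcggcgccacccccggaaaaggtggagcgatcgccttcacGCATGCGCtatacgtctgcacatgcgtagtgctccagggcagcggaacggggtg

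In Atp5l the NRF1 letters lie at bases 11 to 18 of the window and the GABPA letters at bases 39 to 45 and 275 to 281, the last of them after the start. In Uqcr11 the GABPA letters lie at bases 185 to 191 and the NRF1 letters at bases 247 to 254, across the start. The factors themselves were near level. Gabpa stood at 42.1 in Control and 39.7 in LIPUS, Nrf1 at 19.4 and 22.8 and Yy1 at 24.1 and 22.0, while Esrra, which encodes ERR alpha, was past 1.2-fold below Control at 13.9 and 10.4. Of 7 such regulators past the filter, Esrra was the only one past 1.2-fold (14.3%, against 44.2% of all genes in either direction). The coactivators Ppargc1a and Ppargc1b were under 1 FPKM in both groups.

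The rest of the chain, which the symbols above leave out, was close to its partners. The 4 subunits of complex II were all above 0, from 0.01 to 0.21, led by Sdhb, its iron-sulfur subunit, at 55.8 in Control and 64.5 in LIPUS. After scaling to the same sum, 1 of the 4 was above 0 and 3 below, with a median of -0.03 where that of all genes was -0.05. Sdhc, a membrane anchor, stood at 37.2 and 37.7. Cytochrome c (Cycs), which carries electrons from complex III to complex IV, stood at 169 and 197, and Ndufab1, the acyl carrier protein within complex I, at 103.01 and 116. None of these 6 genes was past 1.2-fold, where 44.2% of all genes were. Atpif1, which inhibits the ATP synthase when it runs in reverse, was below Control at 140 and 105 (log2 ratio -0.42), and 2010107E04Rik, a small added subunit, stood at 121 and 129.

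Genes that build and supply the chain are given beside the 21.8% higher and 22.4% lower of all genes. Of 47 assembly factors past the filter, 10 were past 1.2-fold above (21.3%) and 13 below Control (27.7%), shares close to those of all genes, with a median of -0.01. The median size of their log2 ratio was 0.26, against 0.22 for all genes and 0.13 for the chain. Coa6, which helps to place copper in complex IV, stood at 5.93 in Control and 12.02 in LIPUS, and Cox10, which makes its haem, at 12.4 and 6.50. Of 17 genes for the copying and expression of mitochondrial DNA, 2 were above (11.8%) and 7 below (41.2%) by this measure, with a median of -0.15. Polg, the mitochondrial DNA polymerase, stood at 29.1 and 17.4, and Mterf3, a regulator of mitochondrial transcription and ribosomes, at 21.3 and 13.9. Among 78 mitochondrial ribosomal proteins 7 were above (8.97%) and 13 below (16.7%), with a median of -0.03, and the largest differences were in Mrps35, at 35.9 and 19.5, and Mrpl46, at 22.7 and 15.0. The median FPKM of the assembly factors was 11.4 in Control, against 116 for the members of the chain, so that level and group of genes differ together here.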

How the data were processed

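Per the labels, 6 RNA libraries of MLO-Y4 cells (3 LIPUS, 3 Control) were made with a stranded mRNA kit and sequenced as read pairs of 100 bases. The authors used Trimmomatic 0.36 for trimming and TopHat2 2.1.0 with Bowtie2 2.2.6.0 for alignment to GRCm38, and computed FPKM with Cufflinks and Ensembl transcripts (version 2.1.1 in the submitters' processing notes, another in the paper's methods). The deposited table has the layout of a Cuffdiff comparison and holds 1 pooled FPKM per group. Its log2 fold changes, test statistics, p-values and q-values are the authors' own comparison and were not used. The paper states a round number of reads per library, but the table gives no count, depth or value of a single library, so no test, SD or interval was computed here.

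Members were matched by symbol and to GENCODE M21 by identifier, which found all 92. The log2 ratio of LIPUS over Control was taken with a pseudocount of 0.1 for genes whose FPKM reached 1 in 1 group or both, and 1.2-fold was the descriptive threshold. Copies were searched with BLAST 2.17.0 among GENCODE M21 transcripts. Python 3.11.15, numpy 2.4.6, pandas 2.3.3 and matplotlib 3.10.9 were used, and the counting steps were tested on simulated data. Named genes are all mitochondrial members, the 3 nuclear members of each complex with the highest Control FPKM, every member past 1.2-fold, the highest and lowest of each complex, the alternative forms, and the 2 largest differences of each other list at an FPKM of at least 10. Genes named beside them, such as Ndufs3, Uqcrfs1, Atp5a1, Gabpa and Yy1, were added for their role. The members and lists were chosen with earlier results of these data known. Alternatives were the pseudocount, the filter, the scaling, the threshold and the genes left out.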

Additional observations from a re-analysis of the deposited data

How the results depend on the processing

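No paired analysis was possible because the table holds 1 pooled value per group, although the labels number the cultures alike, and leaving out each culture in turn could not be run for the same reason. Without replicate error, a value counted as moved when it shifted by more than 0.05 on the log2 scale, 1 percentage point of a share or 1.5 times a count. The 10 members above and 7 below Control became 26 and 12 at 1.1-fold and 3 and 4 at 1.5-fold, and 4 were below at an FPKM of at least 10. Without mt-Atp8 and mt-Nd4l, short genes that overlap a neighbour, the mitochondrial share of the members' FPKM in Control was 74.6% in place of 83.9%. In an alternative chosen after seeing the data, members with an annotated near-identical copy were left out, which gave 6 members above Control and a share of 82.7%. The other 79 values of medians, counts and shares moved by less than these limits, and no called gene changed sign. Of the single genes, 8 values moved, all of low genes (Atp5s, Cox6b2, mt-Atp6, mt-Co2 and mt-Co3). Over all genes, scaling to the same sum lowered the share of higher calls from 49.3% to 42.3%, and to 43.1% when the mitochondrial genome was left out of the sum. What limits these data is the pooling: neither the spread between cultures nor the fragments behind a value can be read from the table.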

Other observations

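Abundant gene groups outside the chain were also near level. Of 83 cytosolic ribosomal protein genes past the filter, 2 were past 1.2-fold above Control (2.41%) and 0 below, against 21.8% and 22.4% of all genes, with a median log2 ratio of 0.01 and a median size of 0.06. The largest differences at an FPKM of at least 10 were in Rplp2, at 1039 in Control and 1227 in LIPUS, and Rpl24, at 490 and 576. Of 17 glycolysis rows past the filter, 1 was above and 1 below, with a median of 0.01. The gene above was Slc2a1, the glucose transporter GLUT1, at 76.9 and 108, followed in size by Tpi1, triosephosphate isomerase, at 298 and 344, and the row below was a second Aldoa identifier at 2.86 and 1.13. Gapdh stood at 1883 and 2016.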
